A study of Sus scrofa with 18 samples.

Results

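The genes followed here through the muscle wall of the pig uterus belong to the immediate early response and were chosen by symbol, namely FOS, FOSB, FOSL1, FOSL2, JUN, JUNB, JUND, EGR1, ATF3 and IER2. Of these 10 genes, 9 have a row in the expression table, 8 were above 0 in at least 1 library, and the table holds 24358 Ensembl genes in all. RNA of 2 muscle layers, the circular one on the inside (CM) and the longitudinal one on the outside (LM), was sequenced from each of 9 Yorkshire gilts. The 6 groups of 3 gilts were GD12M_CM and GD12M_LM from day 12 of pregnancy, GD15M_CM and GD15M_LM from day 15 of pregnancy, and CD15M_CM and CD15M_LM from day 15 of the estrous cycle. Implantation in the pig begins around these days of pregnancy, and the design allows a comparison of the layers of the same uterus, of the days of pregnancy, and of pregnant with cyclic gilts. All samples came from the mesometrial side, the uteri were cooled, cut and frozen before the endometrium was cut away and the layers were parted, and no gilt received a treatment that the sources name. The interval between removal of the uterus and freezing is not given in the sources used here.

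Immediate early genes are transcribed within minutes of a growth factor, stretch or stress signal, without new protein synthesis, and most of their transcripts are short-lived. MAP kinases and the serum response factor SRF switch on FOS and EGR1, whereas JUN is switched on largely through JUN kinase and through its own protein. FOS and JUN proteins pair through leucine zippers into AP-1, a transcription factor that in the myometrium is known for its link to stretch and to genes of contraction such as GJA1 and OXTR. EGR1 is a zinc finger factor of the same response, ATF3 is a leucine zipper protein of the stress response that pairs with JUN proteins, and IER2 is a nuclear protein induced together with them.

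Values are TPM, transcript levels corrected for gene length that sum to 1000000 in every library, so that they hold no read depth and no counting error is attached to a value. In bulk tissue, fewer cells of a type and less RNA per cell cannot be told apart. The CM libraries held 881 to 2371 TPM of 6 epithelial marker genes together, against 7.99 to 585 TPM in LM, and 6 of 6 of these markers passed the layer test as higher in CM in each state. Summed smooth muscle markers reached 10309 to 27453 TPM in CM and 27836 to 37988 TPM in the LM libraries other than that of cyclic gilt 3, which held 11512 TPM. That CD15M_LM library of gilt 3 stood apart, with 13.4% of its TPM in ribosomal protein genes against 2.82 to 5.02% elsewhere, and with MYH11, the smooth muscle myosin heavy chain, at 193 TPM. HBB, a red blood cell transcript, was at 1480 TPM in it and at 1200 TPM in the CM of the same gilt. Elsewhere HBB reached at most 368 TPM, and its part in the results was not tested. The GD15M_LM library of gilt 2 held EPCAM, an epithelial surface protein, at 25.4 TPM, and both layers of this gilt held S100A8, a neutrophil protein, at 213 to 263 TPM. Several results that rest on the LM libraries are therefore also given without 1 or both of these libraries.

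JUNB (ENSSSCG00000013735) is listed at 0 in all 18 libraries. The table also lists RPL29 and RPS27A at 0 in every library, both ribosomal protein genes that every cell uses, so the JUNB row was not read as a level and was not tested. No Ensembl ID of the table carries the symbol JUND, which was not analysed here. The remaining 8 genes passed the filter on low values, which asked for 3 or more libraries with a TPM of 1 or above.

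The 8 measured genes fell into a steep order of abundance. JUN led with a median of 856 TPM over 18 libraries and lay above IER2, at a median of 206 TPM, in 18 of 18 libraries. FOSL2 followed at 136 TPM and was below IER2 in 15 libraries, then EGR1 at 71.8 TPM, FOS at 60.2 TPM and ATF3 at 38.0 TPM. EGR1 exceeded FOS in 10 of 18 libraries and FOS exceeded ATF3 in 10 of 18, so these neighbours in the order did not differ beyond their spread. FOSB, at 5.86 TPM, was below ATF3 in all 18 libraries, and FOSL1, at 1.92 TPM, was below FOSB in 17. Within the FOS family, FOSL2 supplied 34.3 to 87.6% of the summed TPM with a median of 66.4%, and FOS supplied 6.51 to 62.3% with a median of 28.8%. The family summed to a median of 135, 172 and 212 TPM in CM on day 12, day 15 and in the cycle, and to 211, 293 and 362 TPM in LM, where the cyclic libraries ranged from 102 to 371 TPM. JUN transcripts exceeded the summed FOS family by 1.62-fold to 8.61-fold, with a median of 4.63-fold. The lowest FOSL2 share, the highest FOS share and the lowest ratio of JUN to the family all came from the CD15M_LM library of gilt 3, and the ends without it were 47.6%, 48.8% and 2.77-fold, all in GD12M_LM gilt 2.

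**Figure D1:**
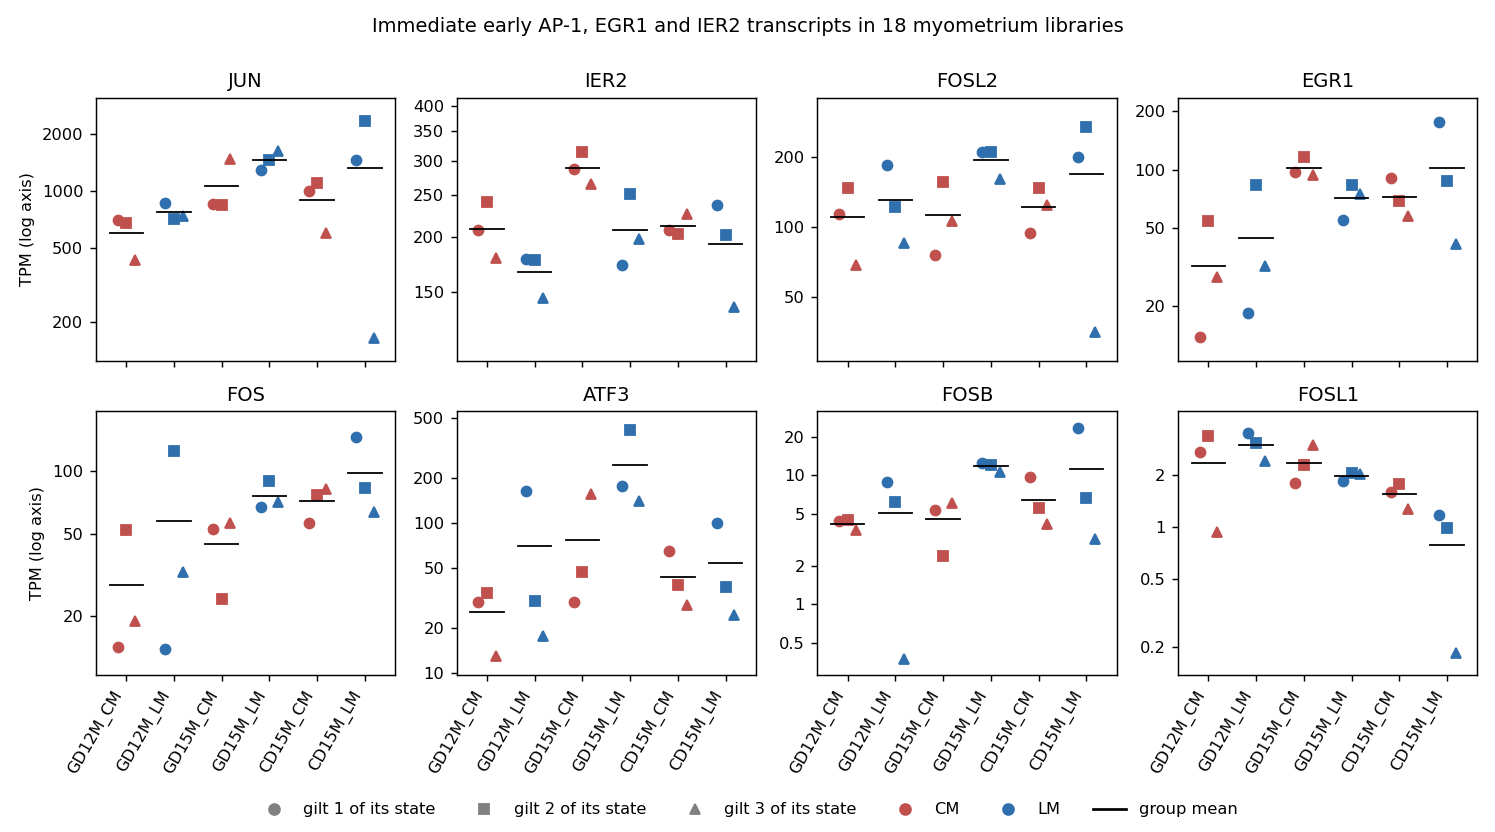
Each panel plots the TPM of 1 gene on a log axis in 18 libraries by group, with CM in red, LM in blue, the marker shape giving the gilt and the black line the group mean. IER2 spans 139 to 314 TPM, whereas ATF3 spans 12.9 to 417 TPM, and the CD15M_LM library of gilt 3 lies at the bottom of its group in all 8 panels.

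In the following, the values of gilts 1, 2 and 3 of a group are given in that order. FOS (ENSSSCG00000002383, chromosome 7, 98449508 to 98451971 of Sscrofa11.1) encodes the classical inducible partner in AP-1. In CM, FOS was at 14.1, 51.8 and 18.9 TPM on day 12 of pregnancy, 52.5, 24.1 and 56.3 TPM on day 15 of pregnancy and 56.5, 77.0 and 82.2 TPM in the cycle. In LM, it was at 13.8, 126 and 32.7, then 67.2, 90.1 and 70.8, and in the cycle 146, 83.6 and 63.8 TPM. The 3 cyclic CM libraries were all above the 3 CM libraries of day 12 and of day 15, while gilt 2 of day 12 stood far above its 2 companions in both layers. On the log2(TPM + 1) scale used for all tests, FOS differed between GD12M_CM and CD15M_CM by -1.52 ± 0.46 (SE), with an adjusted p of 0.152 in limma. The corresponding difference of GD15M_CM from CD15M_CM was -0.76 and that between the days of pregnancy in CM was 0.76, with adjusted p values of 0.459 and 0.473. FOS was higher in LM than in CM in 2 of 3 gilts on day 12, 3 of 3 on day 15 of pregnancy and 2 of 3 in the cycle. On day 15 of pregnancy the groups did not overlap, and the layer difference of -0.85 ± 0.40 had an adjusted p of 0.179. Without gilt 2, both layers of which held S100A8 transcripts, this difference was -0.34 at an adjusted p of 0.710, and without gilt 3 it was -1.10. In gilt 2, FOS deviated from its group mean by -0.76 in CM and by 0.25 in LM on the log2 scale.

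FOSB (ENSSSCG00000031616, chromosome 6, 51836780 to 51844531) encodes a close relative of FOS and was low in every library. In CM it was at 4.41, 4.52 and 3.77 TPM on day 12, 5.41, 2.38 and 6.13 TPM on day 15 of pregnancy and 9.67, 5.58 and 4.22 TPM in the cycle. In LM the values were 8.91, 6.19 and 0.379 TPM on day 12, 12.5, 12.0 and 10.7 TPM on day 15 of pregnancy and 23.5, 6.65 and 3.23 TPM in the cycle. Among the LM groups only GD15M_LM was tight, and all 3 of its gilts were above every GD15M_CM and every GD12M_LM library. The LM excess on day 15 of pregnancy was seen in 3 of 3 gilts and measured -1.25 ± 0.48 as CM minus LM, at an unadjusted limma p of 0.0276 and an adjusted p of 0.106. Between days 15 and 12 in LM, FOSB differed by 1.47 ± 0.79, with an adjusted p of 0.935 and a 95% interval of -0.33 to 3.26. The estimate was 0.59 without GD12M_LM gilt 3, in which FOSB was at 0.379 TPM, and reached 2.02 without GD12M_LM gilt 1.

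FOSL1 (ENSSSCG00000012967, chromosome 2, 6430158 to 6436173) and FOSL2 (ENSSSCG00000032527, chromosome 3, 110820403 to 110842903) encode the FOS-related antigens, which are induced more slowly and lack the strong activating region of FOS. FOSL1 was the lowest of the measured genes, at 2.70, 3.36 and 0.936 TPM in GD12M_CM, 1.79, 2.28 and 2.98 TPM in GD15M_CM and 1.60, 1.77 and 1.26 TPM in CD15M_CM. Its LM values were 3.48, 3.05 and 2.40 TPM on day 12, 1.84, 2.05 and 2.01 TPM on day 15 of pregnancy and 1.17, 0.981 and 0.185 TPM in the cycle. The 3 LM groups did not overlap one another, with day 12 highest and the cycle lowest. GD12M_LM exceeded CD15M_LM by 1.20 ± 0.30, with an adjusted p of 0.0903 in limma, and GD15M_LM exceeded CD15M_LM by 0.78 ± 0.30, with an adjusted p of 0.362. Without the CD15M_LM library of gilt 3, in which FOSL1 was at 0.185 TPM, the first of these differences was 0.93 at an adjusted p of 0.027, so it met the p threshold but not the fold minimum, and the second was 0.51 at 0.229. Over all alternatives the adjusted p of FOSL1 ranged from 0.027 to 0.241 for the first and from 0.229 to 0.678 for the second. The first was called after median-ratio scaling, at 1.29 with an adjusted p of 0.045, and after quantile normalization, at 1.33 with 0.032, and its estimate ranged from 0.47 to 2.06 over all alternatives. In the same comparisons CD15M_LM as a group held 7.65 ± 3.11 TPM of RPL36A, a ribosomal protein gene, against 90.8 ± 24.2 TPM in GD12M_LM and 62.8 ± 14.8 TPM in GD15M_LM (SD, n = 3), and 7.45 ± 2.76 TPM of TAGLN, a smooth muscle protein, against 32.6 ± 7.58 and 43.6 ± 8.29 TPM, each of these 4 differences being called. The part of these transcripts in the FOSL1 values was not tested.

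FOSL2 was far more abundant. In CM it was at 114, 148 and 68.6 TPM on day 12, 75.3, 156 and 106 TPM on day 15 of pregnancy and 93.6, 147 and 125 TPM in the cycle, and in LM at 185, 122 and 85.2, then 211, 211 and 161, and 199, 270.4 and 35.1 TPM in the cycle. The 3 CM groups overlapped, and so did the 3 LM groups, with cyclic LM holding both the highest and the lowest library. On day 15 of pregnancy FOSL2 was higher in LM in 3 of 3 gilts without overlap, at -0.83 ± 0.49 for CM minus LM and an adjusted p of 0.279. This estimate had an adjusted p of 0.020 without the CD15M_LM library of gilt 3, and it was called at -1.04 with an adjusted p of 0.026 when the GD15M_LM library of gilt 2 was left out as well, within a range of 0.020 to 0.686 over all alternatives. The cyclic layer difference was -0.05 with all libraries and -0.98 without the CD15M_LM library of gilt 3, at an adjusted p of 0.047, within a range of 0.046 to 1 over all alternatives.

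JUN (ENSSSCG00000031912, chromosome 6, 153686425 to 153687635) encodes the central AP-1 subunit, which can pair with itself or with any FOS protein. In CM, JUN was at 696, 678 and 427 TPM on day 12, 849, 844 and 1476 TPM on day 15 of pregnancy and 1003, 1097 and 594 TPM in the cycle. In LM, it was at 862, 711 and 739 TPM on day 12, 1292, 1461 and 1623 TPM on day 15 of pregnancy and 1449, 2341 and 166 TPM in the cycle. In both layers the day 15 and day 12 groups of pregnancy did not overlap, day 15 being the higher. The day difference was 0.80 ± 0.32 in CM, at an unadjusted p of 0.0332 and an adjusted p of 0.274, and 0.92 ± 0.81 in LM, at an adjusted p of 0.951. Cyclic LM held both the highest JUN level of the series, 2341 TPM in gilt 2, and the lowest, 166 TPM in gilt 3. With all libraries GD12M_LM and CD15M_LM differed by -0.11 at an adjusted p of 0.958, and without that lowest library by -1.26 at an adjusted p of 0.0073, where JUN was the single member called. The cyclic layer difference of JUN likewise moved from 0.07 to -0.81 without that library, at an adjusted p of 0.047 within a range of 0.046 to 1. For the comparison of GD12M_LM with CD15M_LM, the adjusted p of JUN over all alternatives ranged from 0.0073 to 0.991. The number of all genes called in this comparison moved from 146 to 1452 on the same step.

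EGR1 (ENSSSCG00000014336, chromosome 2, 140440829 to 140445302) was the member with the largest difference between states in CM. In CM, EGR1 was at 13.8, 54.4 and 28.0 TPM on day 12, 97.2, 116 and 93.7 TPM on day 15 of pregnancy and 90.8, 68.7 and 57.4 TPM in the cycle. In LM, it was at 18.3, 83.0 and 31.8 TPM on day 12, 55.3, 83.2 and 74.8 TPM on day 15 of pregnancy and 176, 87.8 and 41.6 TPM in the cycle. All 3 CM libraries of day 12 were below all 6 CM libraries of the other states, whereas the LM groups overlapped. GD15M_CM averaged 102 ± 11.8 TPM (SD, n = 3) and GD12M_CM 32.1 ± 20.6 TPM, a difference of 1.84 ± 0.40 with a 95% interval of 0.94 to 2.74. This difference had an unadjusted p of 0.00117 and an adjusted p of 0.102 in limma, and it measured 2.31 at an adjusted p of 0.047 when GD12M_CM gilt 2, the highest of its group, was left out, within a range of 0.047 to 0.250 over all alternatives. GD12M_CM was below CD15M_CM by -1.32 ± 0.40 as day 12 minus cycle, with an adjusted p of 0.150. The same day difference in LM was 0.92 ± 0.61, with an adjusted p of 0.938 and a 95% interval of -0.46 to 2.30.

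The layer difference of EGR1 changed sign between the days of pregnancy. EGR1 was higher in LM in 3 of 3 gilts on day 12, where CM minus LM was -0.60 to -0.18 on the log2 scale, and higher in CM in 3 of 3 gilts on day 15, at 0.32 to 0.80. The estimates were -0.39 ± 0.25 on day 12 and 0.53 ± 0.25 on day 15 of pregnancy, with adjusted p values of 0.318 and 0.178. The test of the difference itself gave 0.92 ± 0.35, with an unadjusted p of 0.0264 and an adjusted p of 0.623 over all genes. The layer estimates of FOSB, at 0.18 and -1.25, and of FOSL1, at -0.33 and 0.16, also lay on opposite sides of 0 on the days of pregnancy, with gilts of both signs on day 12 and, for FOSL1, on day 15. Their changes of -1.43 and 0.49 had adjusted p values of 0.755 and 0.926, and the opposite signs were lost after median-ratio scaling for FOSB and after quantile normalization for both genes. Against the cycle, where EGR1 was higher in LM in 2 of 3 gilts, the layer difference of day 15 of pregnancy was higher by 0.81 ± 0.35, with an adjusted p of 0.523. In this comparison without the CD15M_LM library of gilt 3, the value was 1.18 with an adjusted p of 0.082, and over all alternatives the adjusted p ranged from 0.080 to 0.897.

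ATF3 (ENSSSCG00000015595, chromosome 9, 130772259 to 130829678) was the most variable of the members. In CM it was at 30.0, 34.1 and 12.9 TPM on day 12, 29.7, 47.5 and 156 TPM on day 15 of pregnancy and 64.8, 38.5 and 28.5 TPM in the cycle. In LM it was at 164, 30.3 and 17.5 TPM on day 12, 177, 417 and 140.4 TPM on day 15 of pregnancy and 101, 37.5 and 24.3 TPM in the cycle. The 3 GD15M_LM libraries were above every cyclic LM library, and in day 12 LM only gilt 1 reached their range. In LM, ATF3 on day 15 of pregnancy differed from day 12 by 2.26 ± 0.83 and from the cycle by 2.25 ± 0.83, with unadjusted p values of 0.0237 and 0.0244 and adjusted p values of 0.926 and 0.353 in limma. On day 15 of pregnancy, ATF3 was higher in LM in 2 of 3 gilts, with CM minus LM at -2.54 in gilt 1 and -3.11 in gilt 2 on the log2 scale, and at 0.15 in gilt 3. The estimate was -1.83 ± 0.61, with an adjusted p of 0.0632. It became -2.82 at an adjusted p of 0.013 without gilt 3, the gilt that went the other way, and -1.20 at 0.353 without the GD15M_LM library of gilt 2, which carried the EPCAM and S100A8 transcripts, and these are the ends of its range over all alternatives. The part of these transcripts in the ATF3 value was not tested.

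IER2 (ENSSSCG00000013753, chromosome 2, 65909638 to 65912491) was the steadiest member. In CM it was at 208, 242 and 179 TPM on day 12, 287, 314 and 266 TPM on day 15 of pregnancy and 207, 204 and 226 TPM in the cycle. In LM it was at 178, 177 and 145 TPM on day 12, 173, 252 and 198 TPM on day 15 of pregnancy and 238, 203 and 139 TPM in the cycle. Each of the 3 GD15M_CM libraries was above all 15 other libraries. GD15M_CM exceeded GD12M_CM by 0.47 ± 0.15 and CD15M_CM by 0.44 ± 0.15, with unadjusted p values of 0.0103 and 0.0144 and adjusted p values of 0.192 and 0.221. It exceeded GD15M_LM in 3 of 3 gilts by 0.49 ± 0.20, at an unadjusted p of 0.0372 and an adjusted p of 0.129. Without the CD15M_LM library of gilt 3 the spread shared by the layer fit was smaller, and the unchanged IER2 difference of 0.49 had an adjusted p of 0.0092, still under the fold minimum, within a range of 0.0092 to 0.460 over all alternatives.

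The first question of the design was whether the layers differed. A gene was called at an adjusted p below 0.05 (Benjamini-Hochberg over all genes tested) with an absolute log2 fold change above 1, in a limma fit of 18 libraries with the gilt as a block. None of the 8 measured members was called on day 12 of pregnancy, day 15 of pregnancy or day 15 of the cycle, where 15.9%, 14.4% and 12.7% of 15343 tested genes were called. At an unadjusted p below 0.05 there were 0 members on day 12, against 33.4% of all genes. There were 3 on day 15 of pregnancy, FOSB and ATF3 toward LM and IER2 toward CM, against 31.5% of all genes, and 1 in the cycle, FOSL1 toward CM at 0.56, against 33.2%. The median difference of the 8 members, CM minus LM, was -0.36 on day 12, -0.67 on day 15 of pregnancy and -0.09 in the cycle, beside 0.23, 0.19 and 0.33 over all genes tested. Without the CD15M_LM library of gilt 3 the cyclic median of the members was -0.68 beside 0.12, EGR1 was at -0.65 with an adjusted p of 0.046, and IER2 moved from 0.17 to -0.09. Scaling each library by median ratios moved these medians of all genes to about 0, at 0.00, 0.02 and -0.01, and those of the members to -0.58, -0.86 and -0.49, and under it FOSB on day 12 and JUN and IER2 in the cycle changed sign. Under that scaling the EGR1 difference on day 12 was -0.65 at an adjusted p of 0.028, within a range of 0.026 to 0.727 over all alternatives. In the cycle it was -0.69 at 0.033, within a range of 0.033 to 0.904, and on day 15 of pregnancy 0.35 at 0.221, within a range of 0.023 to 0.619. Under the same scaling ATF3 on day 15 of pregnancy was called at -2.02. The epithelial and smooth muscle transcripts given above moved with the layers. Further marker counts follow in the order day 12, day 15 of pregnancy and the cycle. Called higher in CM were 1, 5 and 0 of 6 T and natural killer cell markers, with medians of 0.51, 1.65 and 0.61. Of 3 plasma cell markers, 2, 3 and 3 were, with medians of 2.87, 3.16 and 2.09. Of 2 red blood cell markers, 1, 1 and 0 were, with medians of 2.03, 1.59 and 0.90. The part of all these transcripts in the members' differences was not tested.

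**Figure D2:**
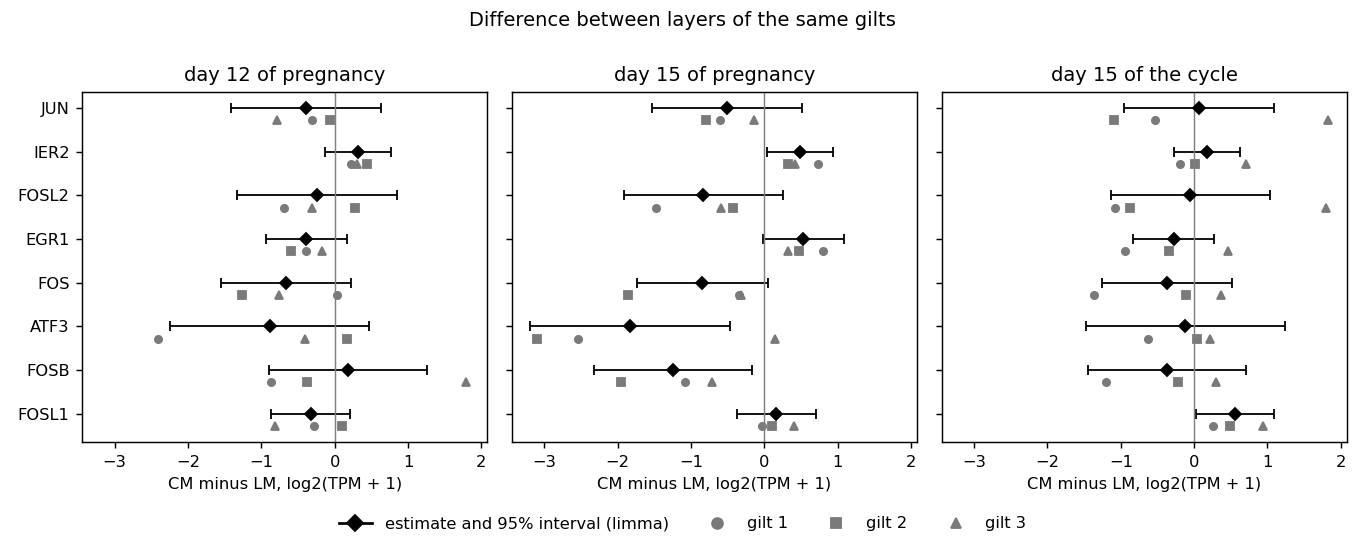
Black diamonds give the limma estimate of CM minus LM with its 95% interval for 8 genes in each state, and gray markers below give the difference in each gilt, all on the log2(TPM + 1) scale. EGR1 lies at -0.39 on day 12 and at 0.53 on day 15 of pregnancy, and the cyclic JUN value of gilt 3 lies opposite to those of gilts 1 and 2.

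The second question was whether the states differed within a layer, and here the comparisons share groups, so that their values are not independent. In CM, 0 of 8 members were called between days 15 and 12 of pregnancy, between day 15 of pregnancy and the cycle, or between day 12 and the cycle, where 0.027%, 0.155% and 0.216% of 14813 genes were called. At an unadjusted p below 0.05 there were 3 (JUN, EGR1 and IER2, all toward day 15), 1 (IER2, toward pregnancy) and 2 (FOS and EGR1, toward the cycle), against 15.5%, 15.2% and 17.7% of all genes. All 8 members had a positive estimate for day 15 against day 12 in CM, with a median of 0.61 beside 0.06 over all genes. The share of all genes with a positive estimate is not given here. Under other scalings the estimates of FOSB, FOSL2 and FOSL1, at 0.04, 0.04 and 0.07, changed sign. They also did so when single libraries were left out, reaching -0.17, -0.26 and -0.28. In the same comparison 6 of 6 markers of T and natural killer cells had a positive estimate, with a median of 1.51, as did 3 of 3 of plasma cells, with a median of 1.75, and 5 of 6 of macrophages and myeloid cells, with a median of 0.94, none of them called. Their part in the members' values was not tested. The medians of the other CM comparisons were 0.31 beside -0.05 for day 15 of pregnancy against the cycle, and -0.51 beside -0.11 for day 12 against the cycle. Against the cycle on day 15, 6 of 6 T and natural killer cell markers, with a median of 1.23, 5 of 6 macrophage and myeloid markers, at 0.93, and 3 of 3 plasma cell markers, at 0.62, had a positive estimate, and 0 of 2 red blood cell markers did, at -1.94. On day 12 against the cycle, 0 of 3 plasma cell markers, at -1.09, and 0 of 2 red blood cell markers, at -1.65, did. None of these markers was called, and their part was not tested.

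In LM the same 3 comparisons called 0 of 8 members, and 0%, 0.178% and 1.04% of 14025 genes. At an unadjusted p below 0.05 there were 1 (ATF3, toward day 15), 2 (FOSL1 and ATF3, toward pregnancy) and 1 (FOSL1, toward day 12), against 4.93%, 12.0% and 19.7% of all genes. The members' medians were 0.92 beside 0.17 for day 15 against day 12, 0.55 beside 0.13 for day 15 of pregnancy against the cycle, and -0.14 beside -0.05 for day 12 against the cycle. Without the CD15M_LM library of gilt 3, the medians against the cycle were -0.19 beside -0.10 for day 15 and -1.08 beside -0.27 for day 12. Quantile normalization moved the members' median for day 12 against the cycle from -0.14 to -0.32. In the comparison of the days, 5 of 6 epithelial markers, with a median of 0.75, 5 of 5 T and natural killer cell markers, at 0.72, 3 of 3 endothelial markers, at 0.61, and 2 of 2 plasma cell markers, at 1.16, had a positive estimate, with 0 called. Against the cycle, 6 of 6 smooth muscle markers did on day 15 and on day 12, with medians of 0.77 and 0.86 and TAGLN called in both. In the same order, 1 and 0 of 6 epithelial markers did, at -0.91 and -1.56, and 0 of 2 red blood cell markers, at -2.63 and -2.78, as well as 0 of 2 plasma cell markers, at -0.65 and -1.82, with 0 called. In CD15M_LM the summed smooth muscle markers were at 28495, 29335 and 11512 TPM in gilts 1, 2 and 3. MYH11 was at 4207, 4849 and 193 TPM there. It was at 4206, 3847 and 3366 TPM in GD15M_LM and at 4096, 2805 and 2459 TPM in GD12M_LM. Only the cyclic library of gilt 3 was below every pregnant LM library in both, and the marker medians without it are not given here. The part of these cell types in the members' values was not tested. Median-ratio scaling moved the medians of all genes from 0.17 to 0.01 and from 0.13 to 0.02 for day 15 against day 12 and for day 15 against the cycle, and from -0.11 to 0.01 for day 12 against the cycle in CM. In the comparison of GD15M_LM with the cycle, the estimates of FOSB, FOSL2, JUN and IER2 changed sign without the CD15M_LM library of gilt 3, JUN for instance from 0.81 to -0.34. The test of whether the layer difference itself changed called 0 of 8 members between the days of pregnancy, beside 0.0196% of genes, and 0 of 8 between day 15 of pregnancy and the cycle, beside 0.189%. EGR1 was the 1 member at an unadjusted p below 0.05 in both tests, against 6.94% and 9.4% of all genes.

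The spread between gilts of the same group differed widely among the members. The SD around the group means on the log2(TPM + 1) scale was 1.06 for ATF3, 0.89 for JUN, 0.88 for FOSB, 0.84 for FOS, 0.76 for FOSL2 and 0.75 for EGR1, beside a median of 0.43 over 15343 genes. For these 6 genes, 87.4 to 97.1% of all tested genes had a smaller SD, and among genes within 2-fold of their own mean level the share was 89.0 to 97.6%. FOSL1 and IER2 were different, at 0.35 and 0.23, with 35.1% and 12.9% of genes below them, and 22.3% and 17.8% among genes of like level. At the median FOSL1 level of 1.92 TPM, adding 1 before the log compresses differences. Its TPM spanned 18.9-fold over the 18 libraries, so its SD is not like those of the abundant members. The CD15M_LM library of gilt 3 was the lowest of all 18 for both JUN and FOSL2. Without it the SD was 0.37 for JUN and 0.45 for FOSL2, with 64.4% and 73.6% of genes below them and a median of 0.30 over all genes, whereas ATF3, FOS, FOSB and EGR1 were at 1.06, 0.86, 0.82 and 0.68, with 89.4 to 97.5% of genes below them. The median SD of the 8 members was 0.80, 0.70 after median-ratio scaling and 0.56 without that library.

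**Figure D3:**
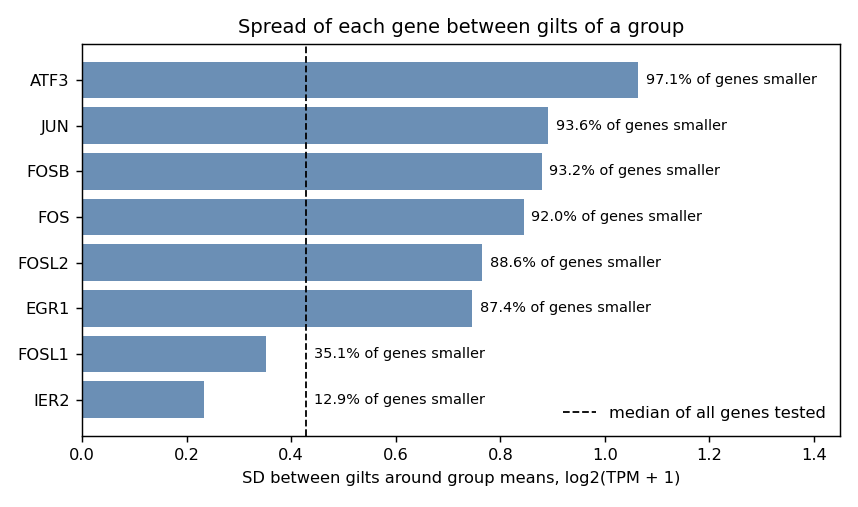
Bars give the SD of each gene around its group means over 18 libraries on the log2(TPM + 1) scale, and the dashed line gives the median of all tested genes, 0.43. ATF3 is at 1.06 and IER2 at 0.23, the JUN bar of 0.89 is 0.37 without the CD15M_LM library of gilt 3, and the text beside each bar gives the percent of tested genes with a smaller SD.

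Within several groups the same gilt was high or low for most members. In GD12M_CM, gilt 2 held the highest value of 7 of 8 members and gilt 3 the lowest of 6. In CD15M_LM, gilt 3 held the lowest value of 8 of 8 and gilt 1 the highest of 6, and in GD12M_LM gilt 1 held the highest of 6 and gilt 3 the lowest of 5. In GD15M_CM, gilt 3 held the highest value of 5 members and gilt 2 of 3, and the lowest values fell to gilt 1 for 3, gilt 2 for 3 and gilt 3 for 2. In CD15M_CM the highest values fell to gilts 1, 2 and 3 for 3, 3 and 2 members, and the lowest for 2, 1 and 5. In GD15M_LM, gilt 2 held the highest value of 5 members and gilt 1 the lowest of 5. The share of all tested genes with their highest or lowest value in each library is not given here. These counts are therefore not read as a trait of the members. Both layers of a gilt were taken from the same uterus, so the deviation of CM from its state mean was compared with that of LM across 9 gilts, by an exact permutation test over all pairings of the gilts within states, whose smallest p is 0.0046. EGR1 had a Pearson r of 0.89 (two-sided exact permutation p = 0.019) and a Spearman rho of 0.87 (exact permutation p = 0.032), and r was 0.91 without the 2 gilts farthest from the median in CM. In EGR1 the same gilt was highest in both layers in 3 of 3 states, and r lay between 0.79 and 0.94 when each gilt was left out in turn. JUN also had the same gilt on top in 3 of 3 states, with r = 0.67 (exact permutation p = 0.028) and rho = 0.67 (p = 0.097), but r was 0.44 without the 2 farthest gilts, 1 of them the cyclic gilt 3. FOSB had r = 0.52 (exact permutation p = 0.037), rho = 0.60 (p = 0.083) and r = 0.53 without the 2 farthest gilts, but r ranged from 0.22, without cyclic gilt 1, to 0.77 when each gilt was left out in turn, with exact permutation p values up to 0.194.

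The other 5 members gave r = 0.57 for FOS, 0.50 for FOSL1, 0.27 for ATF3, 0.18 for IER2 and 0.14 for FOSL2, with exact permutation p values of 0.074 to 0.731. With each gilt left out in turn r ranged from 0.42 to 0.77 for FOSL1, 0.02 to 0.75 for ATF3, -0.08 to 0.64 for IER2 and -0.05 to 0.50 for FOSL2, the values of IER2 and FOSL2 being highest without cyclic gilt 3. The FOS value rested on gilt 2 of day 12, the highest of its group in both layers, since r was -0.30 without it, and r was 0.38 without the 2 gilts farthest in CM, gilt 2 of day 12 and gilt 2 of day 15 of pregnancy. The 3 members at an exact permutation p below 0.05 stand beside 12.0% of 15298 genes, the median r over all genes was 0.41, and after adjustment over all genes the values of EGR1, JUN and FOSB were 0.355, 0.369 and 0.374. No gene of the table passed that adjustment, the smallest adjusted p being 0.303. None of the 8 members had an exact permutation p below 0.05 when day 12 gilt 1 or any 1 of the 3 cyclic gilts was left out, where fewer pairings remain.

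**Figure D4:**
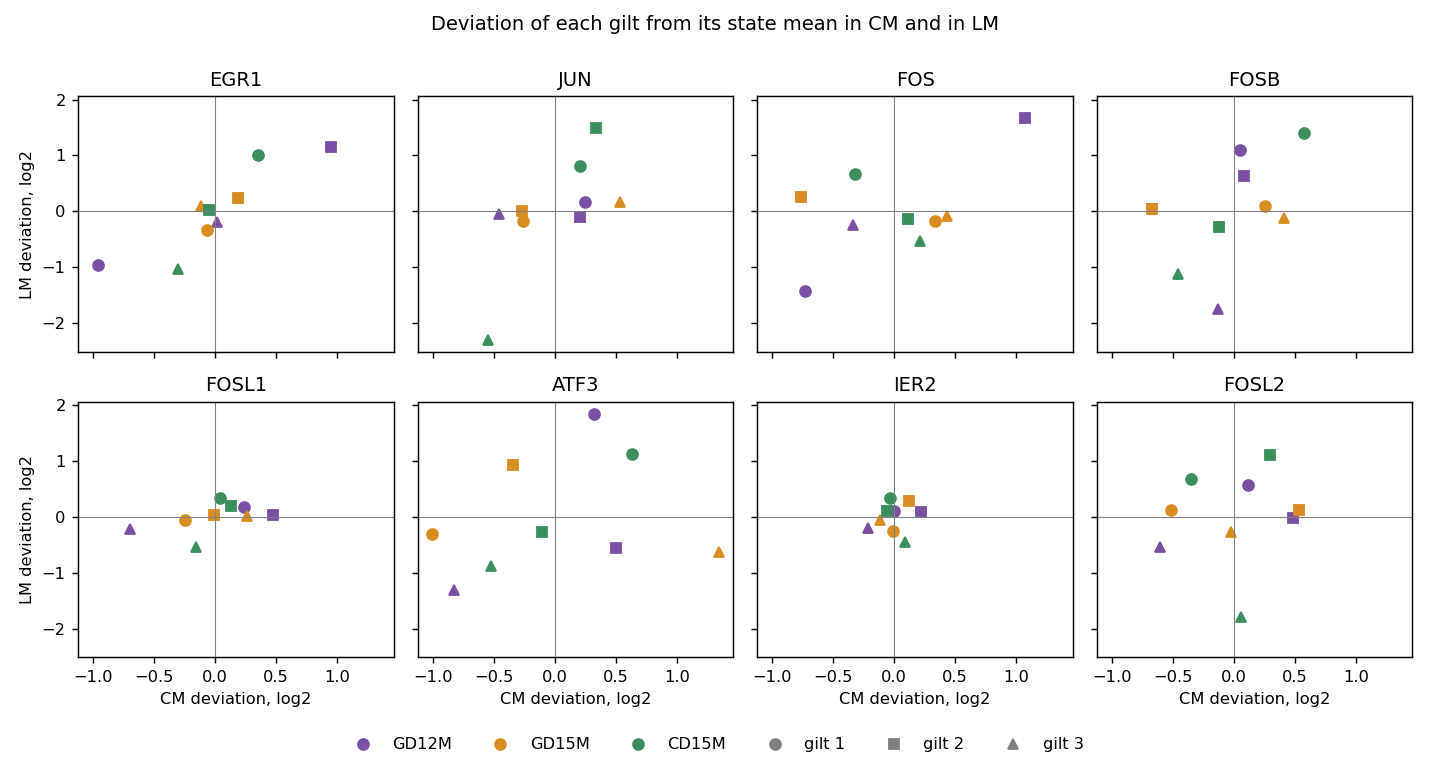
Each point is 1 of 9 gilts, with its deviation from the state mean in CM on the x axis and in LM on the y axis, both on the log2(TPM + 1) scale, color giving the state and shape the gilt. The EGR1 points run along a rising line (r = 0.89), those of IER2 and FOSL2 are more scattered (r = 0.18 and 0.14, or 0.64 and 0.50 without cyclic gilt 3), and the cyclic gilt 3 is the lowest point of JUN and FOSL2 in LM.

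Across the 18 libraries, which share gilts and therefore carry no p here, some pairs of members rose and fell together more closely than others. FOSL2 and JUN had r = 0.82 over all libraries and 0.69 without the CD15M_LM library of gilt 3. Without the CD15M_LM libraries of gilts 2 and 3, the 2 farthest in FOSL2, it was 0.59, and Spearman rho was 0.64. JUN and ATF3 had r = 0.60 and rho = 0.76, and r was 0.83 without the same 2 cyclic libraries. FOS and EGR1 had r = 0.75, or 0.52 without the GD12M_CM and GD12M_LM libraries of gilt 1, the libraries farthest from the median of FOS and the lowest of both genes. FOSB and ATF3 had r = 0.71, and 0.78 without the 2 libraries farthest in FOSB. FOS and ATF3 had r = 0.23, or 0.43 without the same 2 libraries of gilt 1, with ATF3 at 164 TPM and FOS at 13.8 TPM in the same GD12M_LM library of gilt 1.

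**Figure D5:**
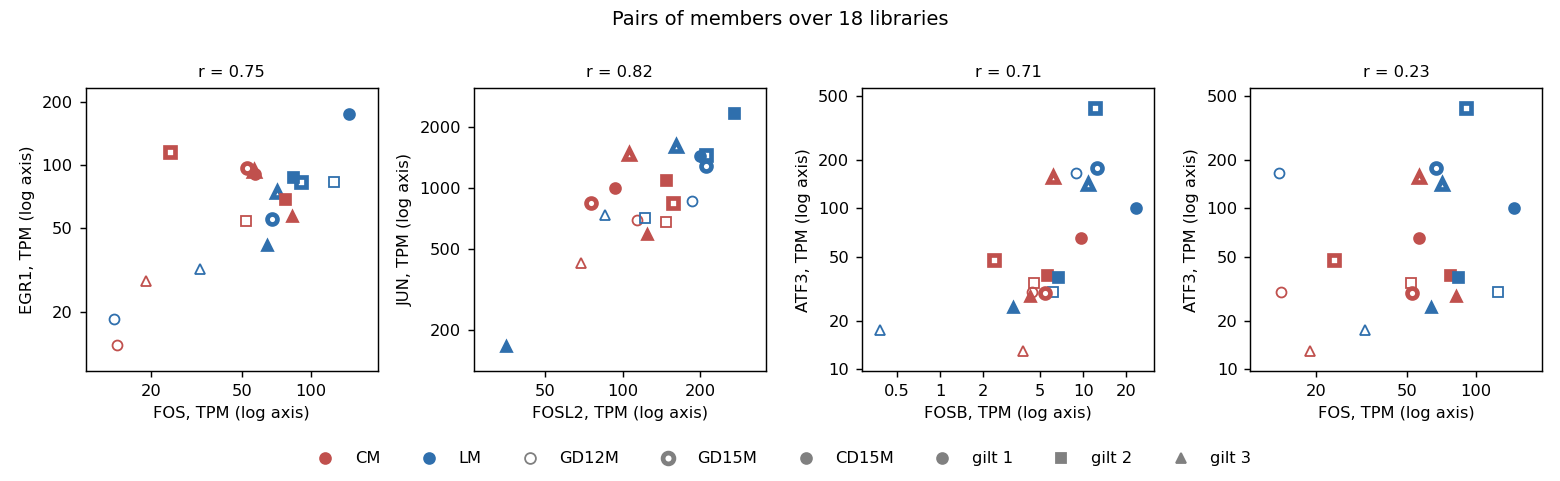
Each point is 1 of 18 libraries, with the TPM of 2 members on log axes, CM in red, LM in blue, filled markers for the cycle, thick open markers for day 15 and thin open markers for day 12 of pregnancy. FOS and EGR1 have r = 0.75, FOSL2 and JUN hold 1 library far below the rest, and FOS and ATF3 have r = 0.23, while without the 2 day 12 libraries of gilt 1 the first r is 0.52 and the last 0.43.

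By likeness to FOS over 18 libraries, EGR1 had the highest Pearson r of all other tested genes. The next 8 genes that carry a symbol were DENND2C at r = 0.75, CLDN11 at 0.75, SNX32 at 0.75, RHOJ at 0.74, HPSE2 at 0.72, KATNAL1 at 0.72, SCN7A at 0.71 and C1QL4 at 0.70, none of which belongs to the lists of early response genes. By Spearman rho these 8 genes lay closer to FOS than EGR1 did, at 0.64 to 0.79 against 0.50. The r of EGR1 was 0.52 without the 2 day 12 libraries of gilt 1. CLDN11 ranged from 0.811 to 13.4 TPM and RHOJ from 80.7 to 291 TPM, and for both the lowest level was in day 12 LM. FOSB, JUN, ATF3, FOSL2, IER2 and FOSL1 had r to FOS of 0.46, 0.31, 0.23, 0.23, 0.08 and -0.28. Of 18 other early transcription factors, 3 had r above 0.5, namely the orphan nuclear receptors NR4A1 and NR4A3 at 0.57 each and KLF6 at 0.51, and their median was 0.15 beside -0.06 over all genes, of which 2.39% exceeded 0.5. Of 29 feedback regulators, 5 exceeded 0.5, led by RGS2, a brake on G protein signaling, at 0.64, by IER5L at 0.60 and by the MAP kinase phosphatase DUSP1 at 0.58, and the median was 0.06. Among 11 heat shock genes 0 exceeded 0.5, with a median of -0.20, and among 7 genes of the unfolded protein response 0 did, with a median of -0.35. The median r to FOS was 0.33 for 5 fibroblast markers, 1 of them above 0.5, 0.27 for 6 smooth muscle markers and -0.22 for 6 epithelial markers, with 0 above 0.5 in both, and the part of these cell types in the likeness was not tested.

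Several genes of the wider early response were called between layers, with 15.9%, 14.4% and 12.7% of all genes called in the 3 states as background. Most genes called over the whole table were higher in CM. On day 12, 2062 were higher and 373 lower in CM, on day 15 of pregnancy 1667 and 546, and in the cycle 1807 and 137. The counts by direction given from here on stand beside that skew. Of 11 secreted early factors, 4 were higher and 1 lower in CM on day 12, 4 and 1 on day 15 of pregnancy, and 3 and 0 in the cycle. CCN2, a matrix-bound growth factor regulator and a classical SRF and YAP target, averaged 767 ± 316 TPM in GD15M_CM and 137 ± 96.6 TPM in GD15M_LM (SD, n = 3), a difference of 2.68 ± 0.31. EREG, an EGF receptor ligand, and EDN1, the endothelin precursor, were higher in CM in all 3 states. CCN1, the relative of CCN2, was higher in LM, with CM minus LM at -1.13 and -1.04 on the days of pregnancy, and is named after its values were seen. The epithelial transcripts described above were higher in CM as well, and their part in these values was not tested. The list medians were 0.67, 0.26 and 0.19 beside 0.23, 0.19 and 0.33 over all genes.

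Of 18 other early transcription factors, 3 were higher and 0 lower in CM on day 12, 2 and 1 on day 15 of pregnancy, and 1 and 0 in the cycle. NR4A2, an orphan nuclear receptor, was higher in CM in all 3 states, by 1.47, 1.35 and 1.46, ID2, an inhibitor of helix-loop-helix factors, on both days of pregnancy, by 1.46 and 1.88, and MYC was lower in CM on day 15 of pregnancy, at -1.14. Of 29 feedback regulators, 3 were higher and 4 lower on day 12, 4 and 2 on day 15 of pregnancy, and 3 and 1 in the cycle. GADD45G, a growth arrest protein, led on day 12 at 1.91, and GADD45A and the antiproliferative BTG1 on day 15 of pregnancy at 1.44 and 1.40. In the cycle TNFAIP3, a brake on NF-kappaB, led at 1.67. NFKBIZ, a nuclear regulator of the same pathway, was higher in LM in all 3 states, with CM minus LM at -1.74, -1.31 and -1.36.

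Among the signaling input, 2 of 21 genes were higher and 0 lower in CM on day 12, 1 and 1 on day 15 of pregnancy, and 2 and 0 in the cycle. RPS6KA1, the ribosomal S6 kinase downstream of MAP kinase, was higher in CM by 2.04, 1.61 and 2.15, and SRF itself was lower in CM on day 15 of pregnancy, at 157 ± 28.4 TPM against 368 ± 67.2 TPM in LM, a difference of -1.23 ± 0.30 with an adjusted p of 0.019 in limma. Of 7 other leucine zipper factors of the AP-1 class, MAF and JDP2, an AP-1 repressor, were lower in CM on both days of pregnancy, MAF at -1.06 and -1.05 and JDP2 with 39.1 ± 8.32 TPM in CM against 82.0 ± 20.6 TPM in LM on day 12. BATF2 was higher in CM on day 15 of pregnancy, at 47.9 ± 64.2 TPM against 7.66 ± 9.52 TPM, and 0 of the 7 were called in the cycle. Of 9 AP-1 targets, OXTR, the oxytocin receptor, was lower in CM in all 3 states, with CM minus LM at -1.90, -3.47 and -1.76, and TIMP1 was higher in CM on day 12 by 1.05, while GJA1, the gap junction protein, was not called. Of 11 heat shock genes, HSPA8 was higher in CM on day 12 by 1.05 and HSPB8 lower on day 15 of pregnancy at -1.10, and 0 were called in the cycle. Of 7 genes of the unfolded protein response, TRIB3 was higher in CM in all 3 states, by 1.28, 1.65 and 1.16, and ASNS, the asparagine synthetase, lower on day 12 at -2.12. No gene of these lists was called between states within a layer, or in the tests of a changed layer difference. The 6 smooth muscle markers had medians of CM minus LM of -1.02, -1.31 and -0.16 in the 3 states. Their part, and that of the other cell types, in the layer differences of this and the preceding paragraph was not tested.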

How the data were processed

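RNA of the circular and longitudinal muscle of 9 gilts was sequenced as paired reads on an Illumina instrument, and for alignment the authors used HISAT2 2.1.0 on the pig assembly Sscrofa11.1, with HTSeq 0.9.1 for counting. The deposited values are TPM per Ensembl gene, and how TPM was derived from the counts and whether strand was used are not given in the sources used here. TPM keeps no depth, so the precision of low values cannot be read from it. The 18 libraries, 1 per layer and gilt, were grouped by layer and state from the labels. Of 24358 Ensembl IDs, 14692 carried a symbol in the names supplied with the files, and 4618 rows were 0 throughout.

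Values were taken as log2(TPM + 1), and genes with TPM of 1 or more in 3 or more libraries of the fit were tested with limma 3.58.1 in R 4.3.3 (eBayes with a mean trend, 2-sided), with Benjamini-Hochberg adjustment over all genes tested. Layers and changes in the layer difference were fitted over 18 libraries, blocked by gilt, since the study used a paired design. This pairing comes from the samples, since both layers of a gilt share a uterus, and the deviations of same-gilt layers correlated at 0.193 to 0.526 in 9 of 9 gilts. States were fitted within a layer on 9 libraries. Replicates were separate gilts. All members and the 8 genes with a symbol most correlated with FOS are named, and genes named from the lists are among the up to 4 called genes per list and comparison with the largest change, unless stated. The members and gene lists were chosen with earlier results of these data known. Correlations used Python 3.11.15 and scipy 1.17.1. Other pseudocounts, filters, scalings and blocks and the omission of each gilt were tried, and every test was checked on simulated data. Values of 1 gene of the lists are not reported here. No sequences are shown.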

Additional observations from a re-analysis of the deposited data

Results flagged for a closer look

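The layer difference of EGR1 had opposite signs on days 12 and 15 of pregnancy, which were sampled in different gilts. All 3 gilts of day 12 had more EGR1 in LM and all 3 gilts of day 15 had more in CM, and the layer difference of day 15 minus that of day 12 was 0.92 ± 0.35 (SE) on the log2 scale. The limma test of this difference gave an unadjusted p of 0.026 and an adjusted p of 0.623 over 15343 genes, so it failed the correction. The estimates of FOSB and FOSL1 also changed sign between the days, but with gilts of both signs on day 12. The estimate lay between 0.78 and 1.05 over the 18 alternatives, with adjusted p values of 0.153 to 1.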

How the results depend on the processing

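No member was called in any of the 11 comparisons, so no call could be lost or reversed, and alternatives could only add calls. On day 15 of pregnancy the layer comparison called 1 member after median-ratio scaling (ATF3), 2 after quantile normalization (FOSB and ATF3) and 1 in a fit of only the 6 libraries compared (FOSB). Over the whole table these fits called 2200 of 15279, 2178 of 15343 and 2300 of 14300 genes. Leaving out each gilt gave 0 to 1 there (ATF3, without gilt 3), 0 to 1 between days 15 and 12 in CM (EGR1, without GD12M_CM gilt 2) and 0 to 1 between day 12 and the cycle in LM (JUN, without CD15M_LM gilt 3). Beside these calls of ATF3, EGR1 and JUN stood 1660 of 15225, 14 of 14732 and 1452 of 13923 genes called in the same fits. The comparison of day 12 with the cycle in LM called 1 member after median-ratio scaling and 1 after quantile normalization, FOSL1 both times, beside 264 of 13961 and 308 of 14025 genes. Chosen after seeing the data, the omission of the CD15M_LM library of gilt 3 called 1 there (JUN), and the omission of it together with the GD15M_LM library of gilt 2 called 1 there (JUN) and 1 in the layer comparison of day 15 (FOSL2). In that order, these fits called 1452 of 13923, 1567 of 13622 and 2365 of 15244 genes. The CM to LM correlations passed an exact permutation p of 0.05 in 3 members, in 1 after median-ratio scaling, in 0 to 2 without 1 gilt, where fewer pairings remain, and in 0 without cyclic gilt 3 and day 15 gilt 2. With the replicate block in the state comparisons, whose numbers pair no animals across states, and with no replicate block in the layer comparisons, 0 members were called. The block moved the number of all genes called from 4, 23 and 32 to 9, 7 and 1 in CM and from 0, 25 and 146 to 0, 6 and 10 in LM, and its removal moved it from 2435, 2213 and 1944 to 2037, 1579 and 1509 between layers. Without the CD15M_LM library of gilt 3, the calls in LM rose from 25 to 368 for day 15 against the cycle and from 0 to 32 between the days of pregnancy. Of 88 member fold changes, 31 changed sign in at least 1 alternative, in 85 of 1501 combinations of fold change and alternative. All were uncalled and at most 0.81 in size, and 31 of the 85 came without the CD15M_LM library of gilt 3 or its gilt. Unless named here, the cause of a change was not tested.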
